A study of Mus musculus with 217 samples.

Results

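The efflux transporters of the ATP-binding cassette (ABC) class were followed in ribosome-bound RNA of endothelial cells (ECs) from mouse brain, lung and heart, as 9 genes: Abcb1a, Abcb1b, Abcg2, Abcc1, Abcc3, Abcc4, Abcc5, Abcc6 and Abcc9. These were chosen by name out of 52550 genes in the count files, and all 9 were found. The RNA came from adult C57BL/6J RiboTagEC mice (Cdh5CreERT2/+; Rpl22HA/+), in which tamoxifen-activated Cre under the promoter of Cdh5 (VE-cadherin, the endothelial junction protein) adds an HA tag to the ribosomal protein Rpl22. All mice, controls included, had received tamoxifen by gavage (5 mg, 4 times, from the age of 4 to 6 weeks). Control mice (0 hr) were compared with mice taken at 6, 24, 48, 72 and 168 hr after an intraperitoneal injection of lipopolysaccharide (LPS, 10 mg/kg), the bacterial endotoxin used here to induce systemic inflammation. Runs of 1 library were summed, which gave 98 libraries, and the 80 with at least 3% of their reads on genes were used. In the order 0, 6, 24, 48, 72 and 168 hr, the used libraries numbered 5, 5, 4, 6, 4 and 4 in brain, the same in heart, and 4, 4, 2, 6, 4 and 4 in lung.

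ABC exporters use ATP to move lipids, drugs, metabolites and conjugates out of cells. At the blood-brain barrier, P-glycoprotein, which rodents encode with a pair of genes (Abcb1a and Abcb1b), and the breast cancer resistance protein Abcg2 sit on the blood-facing membrane of ECs and return many drugs to the blood. The multidrug resistance-associated proteins export organic anions: Abcc1 is known for glutathione conjugates and leukotriene C4, Abcc3 for glucuronides and bile salts, Abcc4 and Abcc5 for cyclic nucleotides among other anions, and Abcc6 for its part in ATP release and in keeping soft tissue free of calcification. Abcc9 belongs to the same subfamily but exports nothing; it is the sulphonylurea receptor SUR2, the regulatory subunit of ATP-sensitive potassium channels, and it is known in pericytes, smooth muscle and heart muscle.

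The genes lie at chr5:8660077-8748575 (Abcb1a, plus strand), chr5:8798147-8866315 (Abcb1b, plus), chr6:58584523-58695676 (Abcg2, plus), chr16:14361558-14475737 (Abcc1, plus), chr11:94343295-94392997 (Abcc3, minus), chr14:118482692-118706219 (Abcc4, minus), chr16:20331303-20426394 (Abcc5, minus), chr7:45967555-46030302 (Abcc6, minus) and chr6:142587862-142702315 (Abcc9, minus) of GRCm38, and the counts cover their exons. RefSeq promoter windows (GRCm38.p6, from 250 bases before to 50 after a start) were matched for 6 members, with 9 windows in all; Abcc1, Abcc3 and Abcc6 had none. The windows of 4 members whose reads changed in brain ECs after LPS (Abcb1a, Abcg2 and Abcc4 fell, Abcb1b rose) are shown, 1 window each, 5′ to 3′, with matches to the searched motifs in capitals. They are chr5:8566841-8567140 (plus strand, upstream of the Abcb1a gene model above), chr5:8797897-8798196 (plus), chr6:58640296-58640595 (plus, inside the longer Abcg2 gene model) and chr14:118706170-118706469 (minus).
Abcb1a: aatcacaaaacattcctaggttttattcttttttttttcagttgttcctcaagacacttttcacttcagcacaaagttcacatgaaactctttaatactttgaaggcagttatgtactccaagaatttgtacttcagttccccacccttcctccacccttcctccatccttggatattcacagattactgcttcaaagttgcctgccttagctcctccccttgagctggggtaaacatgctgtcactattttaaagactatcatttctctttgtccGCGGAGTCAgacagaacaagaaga
Abcb1b: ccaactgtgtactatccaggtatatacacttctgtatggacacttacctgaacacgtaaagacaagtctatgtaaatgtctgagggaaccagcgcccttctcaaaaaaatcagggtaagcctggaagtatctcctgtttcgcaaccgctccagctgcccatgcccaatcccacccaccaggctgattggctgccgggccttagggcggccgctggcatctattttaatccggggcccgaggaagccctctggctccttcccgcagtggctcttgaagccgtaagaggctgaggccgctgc
Abcg2: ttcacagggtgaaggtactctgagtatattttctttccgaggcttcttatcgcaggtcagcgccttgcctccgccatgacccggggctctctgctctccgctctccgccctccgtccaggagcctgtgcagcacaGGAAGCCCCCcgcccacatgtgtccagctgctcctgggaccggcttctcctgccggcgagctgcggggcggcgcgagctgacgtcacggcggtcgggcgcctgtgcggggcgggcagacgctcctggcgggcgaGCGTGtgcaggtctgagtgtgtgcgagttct
Abcc4: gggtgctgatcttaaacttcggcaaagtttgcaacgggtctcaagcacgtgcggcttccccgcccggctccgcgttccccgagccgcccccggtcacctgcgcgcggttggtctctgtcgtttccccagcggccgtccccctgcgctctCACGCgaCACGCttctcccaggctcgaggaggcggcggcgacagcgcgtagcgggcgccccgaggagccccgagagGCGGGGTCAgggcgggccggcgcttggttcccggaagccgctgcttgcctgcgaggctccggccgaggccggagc
The searched motifs, on both strands, were the kappaB motif of NF-kappaB factors, the core of the xenobiotic response element (GCGTG), the antioxidant response element (TGACNNNGC) and the interferon-stimulated response element. In the windows shown, the Abcb1a window held 1 antioxidant element, the Abcb1b window held none of the 4 motifs, the Abcg2 window held a kappaB match and a xenobiotic core, and the Abcc4 window held 2 xenobiotic cores and an antioxidant element. Over all 9 windows, kappaB was matched in 3, the xenobiotic core in 2, the antioxidant element in 3 and the interferon element in 0. Over all 32851 promoter windows the shares were 8.46%, 32.4%, 12.4% and 3.44%. The windows are not separate genes, since Abcg2 and Abcc4 had more than 1 each. The kappaB windows belonged to Abcg2 and Abcc9 only, and the antioxidant windows to Abcb1a and Abcc4 only. No match overlapped another in the windows shown. A match describes letters in a window and was not read as a bound site.

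Depth and composition differed more between lungs than between the other tissues. Reads on genes ran from 7226796 to 32891759 in brain libraries, from 8136031 to 33050750 in heart and from 284457 to 43417945 in lung. A single count in the shallowest lung library, which had a TMM factor of 0.122, was worth 28.9 counts per 1000000 TMM-scaled counts on genes (CPM). The factor was also low in lung 6 hr replicate 2 (0.250) and lung 48 hr replicate 1 (0.246), which raises their CPM above counts per 1000000 unscaled reads. At 0 hr the summed level of 12 endothelial markers was 2712 to 5110 CPM in brain, 12389 to 14254 CPM in heart and 14162 to 22555 CPM in lung. Markers of other cells were also present: against the other tissues, 7 of 8 neuronal and 6 of 6 oligodendrocyte markers were higher in brain, 7 of 7 alveolar epithelial markers in lung and 8 of 8 cardiomyocyte markers in heart, while Mog (a myelin protein) was at 0 in control libraries of lung and heart. The alveolar sum was 6453 to 12722 CPM in lung controls, 41.4 to 121 in brain and 0.675 to 54.8 in heart. In such bulk RNA, fewer cells of a type and less RNA per cell cannot be told apart. Brain replicate 6, heart replicate 5 and lung replicate 4 were the 6 hr libraries of library series 1, a series set apart by file names. Their shared file tag gave series and time but no mouse number, so it does not show a shared mouse. They are called the tagged libraries here, and the other 6 hr libraries untagged. The tagged brain and heart libraries lacked most of the response of the other 6 hr libraries. Lcn2, an acute-phase gene, was at 289 CPM in brain replicate 6, above its 0 hr range of 5.41 to 37.1 but far below the 4841 to 8540 of the other 6 hr brain libraries. In heart replicate 5 it was at 46.7 CPM, against 7.51 to 19.7 at 0 hr and 3062 to 6791 in the other 6 hr libraries. Icam1, a leukocyte adhesion molecule, was at 36.8 and 123 CPM in these libraries, within the 0 hr ranges of 19.9 to 44.1 in brain and 89.8 to 129 in heart. These check genes were chosen after their values were seen, and the lung library had too few reads to judge; the 6 hr tests described for the members are given with these libraries and without them.

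At 0 hr the 9 members formed different sets in the 3 endothelia. Abcb1a and Abcc4 were highest in brain, lower in heart and lowest in lung; Abcg2 stood at like levels in brain and heart and lower in lung; Abcb1b was highest in heart; Abcc3 was highest in lung; and Abcc6 had reads in brain only. Against the mean of the other tissues, 4 members were higher in brain (35.1% of the 17730 genes tested were) and 2 lower (23.4%), 1 was higher in lung (28.0%) and 5 lower (34.4%), and 6 were higher in heart (27.7%) and 1 lower (30.5%). Between pairs of tissues, 7 of 9 members differed between brain and lung (64.3% of genes), 5 between brain and heart (54.8%) and 6 between lung and heart (61.1%). The counts that are higher in brain or compare brain with lung or heart include Abcc6. That gene passed the filter on low counts only through brain, so its direction was fixed. Over the members, the median log2 fold change came to 0.31 for brain, -2.08 for lung and 0.83 for heart, beside 0.22, -0.35 and -0.07 over all genes tested: the typical gene was lower in lung as well. The tests are edgeR's quasi-likelihood test with the library series as a term, and each adjusted p is Benjamini-Hochberg over all genes tested.

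**Figure D1:**
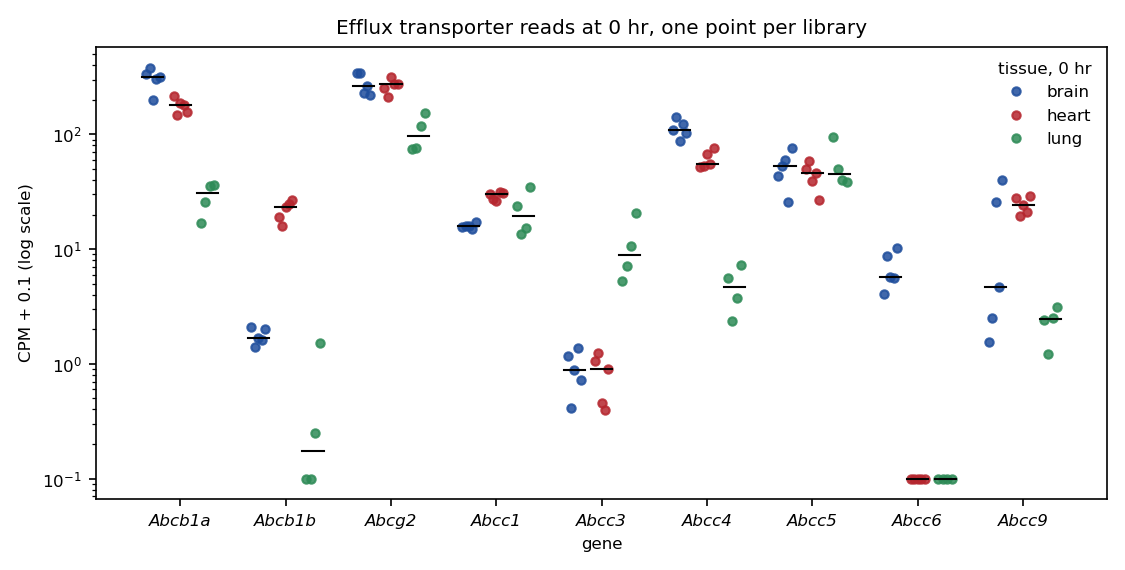
CPM of the 9 genes in each control (0 hr) library of brain, lung and heart, on a log axis after adding 0.1; each point is a library and each bar the median of its tissue. Abcc6 lies at the bottom of the axis in lung and heart, where it had 0 counts, and Abcb1b is highest in the 5 heart libraries (15.8 to 26.5).

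Abcb1a, the main P-glycoprotein gene of rodent brain vessels, was at 336, 382, 200, 305 and 316 CPM in the 5 control brain libraries, at 215, 148, 189, 180 and 158 in heart, and at 16.8, 25.7, 35.6 and 36.2 in lung. All lung libraries lay below all others, whereas the lowest brain library lay below the highest heart library. The log2 fold change of brain against lung was 3.35 (SE 0.29, adjusted p = 1.8e-07, 10.2-fold). The excess over heart was smaller, at 0.73 (SE 0.24, adjusted p = 0.0178, 1.66-fold), and was not called without heart replicate 2 (0.64, adjusted p = 0.0533).

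Abcb1b, its paralogue, had the opposite order in brain and heart. It was at 18.7, 15.8, 23.1, 24.8 and 26.5 CPM in heart, at 1.97, 1.31, 1.59, 1.51 and 1.93 in brain, and at 0, 0, 0.149 and 1.41 in lung (0, 0, 5 and 18 counts). Every heart library lay above every brain library, with a log2 fold change of brain against heart of -3.79 (SE 0.56, adjusted p = 3.73e-05, 13.8-fold lower). Brain exceeded lung by 2.06 (SE 0.70, adjusted p = 0.0175), but the call was lost without lung replicate 3 (1.59, adjusted p = 0.0847). Of the 50-base windows of their exons, 17.6% of those of Abcb1a and 11.6% of those of Abcb1b also occur in another gene, mostly in each other, so reads from these stretches are uncertain.

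Abcg2 was at 343, 341, 229, 264 and 220 CPM in brain, at 256, 213, 315, 273 and 272 in heart and at 75.1, 76.3, 118 and 154 in lung. The ranges of brain and heart overlapped, and their log2 fold change was -0.00 (SE 0.24, adjusted p = 0.992). Both lay wholly above lung, with 1.34 for brain against lung (SE 0.26, adjusted p = 0.000336, 2.54-fold) and -1.35 for lung against heart (2.54-fold lower). The higher value of heart against the mean of the other tissues (0.68) was not called without heart replicate 3 (0.53, adjusted p = 0.0552).

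Among the anion exporters, Abcc4 followed the order of Abcb1a. It was at 109, 143, 87.0, 122 and 102 CPM in brain ECs, at 52.3, 52.7, 67.6, 55.5 and 75.7 in heart and at 5.51, 2.24, 3.63 and 7.19 in lung. No 2 tissues overlapped. Brain exceeded lung by 4.62 on the log2 scale (SE 0.31, adjusted p = 2.04e-08, 24.6-fold) and heart by 0.80 (SE 0.24, adjusted p = 0.0105, 1.75-fold).

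Abcc3 was the only member higher in lung. Its levels were 5.22, 6.98, 10.5 and 20.7 CPM in lung, 1.08, 0.309, 0.778, 1.26 and 0.62 in brain, and 0.963, 1.14, 0.359, 0.292 and 0.809 in heart. Lung did not overlap either tissue, at 3.82 against the mean of both (SE 0.41, adjusted p = 1.92e-06). Brain and heart overlapped (0.26, adjusted p = 0.678).

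Abcc1 was at 15.5, 15.9, 15.8, 14.7 and 16.9 CPM in brain and at 30.0, 27.0, 26.2, 31.1 and 30.5 in heart, without overlap, a log2 fold change of -0.94 (SE 0.21, adjusted p = 0.00167). Lung ranged from 13.4 to 34.5 and did not differ from brain or heart past the threshold (adjusted p = 0.107 and 0.0781). Abcc5 was not called in any pair of tissues: its levels were 25.4 to 76.5 CPM in brain, 26.9 to 58.2 in heart and 38.0 to 95.3 in lung, and the adjusted p of the pairs ran from 0.418 to 0.767.

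Abcc6 was at 3.95, 8.59, 5.62, 5.51 and 10.2 CPM in the control brain libraries and had 0 counts in all 9 control libraries of lung and heart. Pooled over the group, brain held 766 counts, or 6.97 CPM, which is at least 151-fold higher than the floor of 3 counts over the lung group and at least 260-fold higher than that over the heart group. Abcc6 passed the filter on low counts at 0 hr only through its brain libraries. The direction of its test was thus fixed, and no p is given. Over all times the gene was above 0 in 28 of 28 brain libraries, while it had 0 counts in 21 of 24 lung and 27 of 28 heart libraries, with at most 3 and 2 counts in the others. Floors and intervals here cover counting error only.

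Abcc9 was at 28.0, 19.3, 23.9, 20.9 and 29.1 CPM in heart, at 2.32, 1.12, 2.41 and 3.05 in lung, and at 1.44, 2.4, 25.6, 4.60 and 39.6 in brain. Heart lay wholly above lung (-3.36 for lung against heart, 10.3-fold lower). The brain libraries fell on both sides, and their excess over lung (2.25, SE 0.84, adjusted p = 0.028) was -0.50 between the libraries of series 1 and 3.27 between those of series 2. That call was lost without brain replicate 3 (2.01, adjusted p = 0.0545) or 5 (1.60, adjusted p = 0.0704) and without lung replicate 2 (1.78, adjusted p = 0.107) or 3 (2.06, adjusted p = 0.0987), and with the mouse block (adjusted p = 0.0708). In heart, 8 of 8 cardiomyocyte markers were higher as well and 8 of 10 mural markers were lower, with a mural sum of 132 to 253 CPM beside 1283 to 3474 in brain; their part in the Abcc9 level was not tested.

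Levels can be compared between genes only per length of exon. In brain the order of the mean log2 RPKM (CPM per kb of exon, SD over the control libraries) was Abcb1a at 5.78 ± 0.35, Abcg2 at 5.07 ± 0.31, Abcc4 at 4.12 ± 0.27 and Abcc5 at 2.18 ± 0.60, followed by Abcc6 at 0.18 ± 0.54, Abcc1 at 0.07 ± 0.07, Abcc9 at -0.23 ± 2.07, Abcb1b at -2.20 ± 0.23 and Abcc3 at -2.77 ± 0.68. Abcc6, Abcc1 and Abcc9 lay within each other's spread, as did Abcb1b and Abcc3. In heart, Abcg2 and Abcb1a stood together at the top (5.01 ± 0.20 and 5.01 ± 0.21), then Abcc4 (3.24 ± 0.24), Abcc5 (2.00 ± 0.42), Abcc9 (1.52 ± 0.26), Abcb1b (1.43 ± 0.31), Abcc1 (0.94 ± 0.11) and Abcc3 (-2.96 ± 0.75), where Abcc5, Abcc9 and Abcb1b were not separated by their spread. In lung, Abcg2 led (3.63 ± 0.51), Abcb1a (2.32 ± 0.52) and Abcc5 (2.28 ± 0.61) were alike, and Abcc3 (0.74 ± 0.85) and Abcc1 (0.43 ± 0.62) followed, ahead of Abcc4 (-0.56 ± 0.72), Abcc9 (-1.93 ± 0.59) and Abcb1b (-5.03 ± 1.86). Abcc4 stood above Abcc5 in brain and heart and below it in lung.

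After LPS, members moved in both directions. In brain ECs at 6 hr, Abcb1a, Abcg2 and Abcc4 fell and Abcc1 and Abcb1b rose, which made 2 of 9 members higher where 4.21% of the 19234 genes tested were, and 3 lower where 2.23% were. Without replicate 6, the tagged library, 2 were higher (7.63% of genes) and 4 lower (6.71%), Abcc6 being the addition. The median log2 fold change at 6 hr was -0.20 over the members in brain, -0.08 in heart and -0.52 in lung, beside 0.00, -0.05 and -0.42 over all genes tested. Without the tagged libraries these medians were -0.21, -0.13 and -0.27, beside -0.02, -0.08 and -0.31. With replicate 6 in the fit, the brain calls of Abcc1, Abcb1b, Abcg2 and Abcc4 at 6 hr were lost without the library series term (adjusted p up to 0.182, 0.122, 0.144 and 0.0654 over the alternatives), and those of Abcc1, Abcb1b and Abcg2 with all tissues in 1 fit. The Abcb1b call was lost with limma-voom as well. Over the 5 times, 8 of 45 member tests in brain were higher (4.36% of all gene tests) and 6 lower (2.71%), and 10 and 8 without that library (5.54% and 4.16%).

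**Figure D2:**
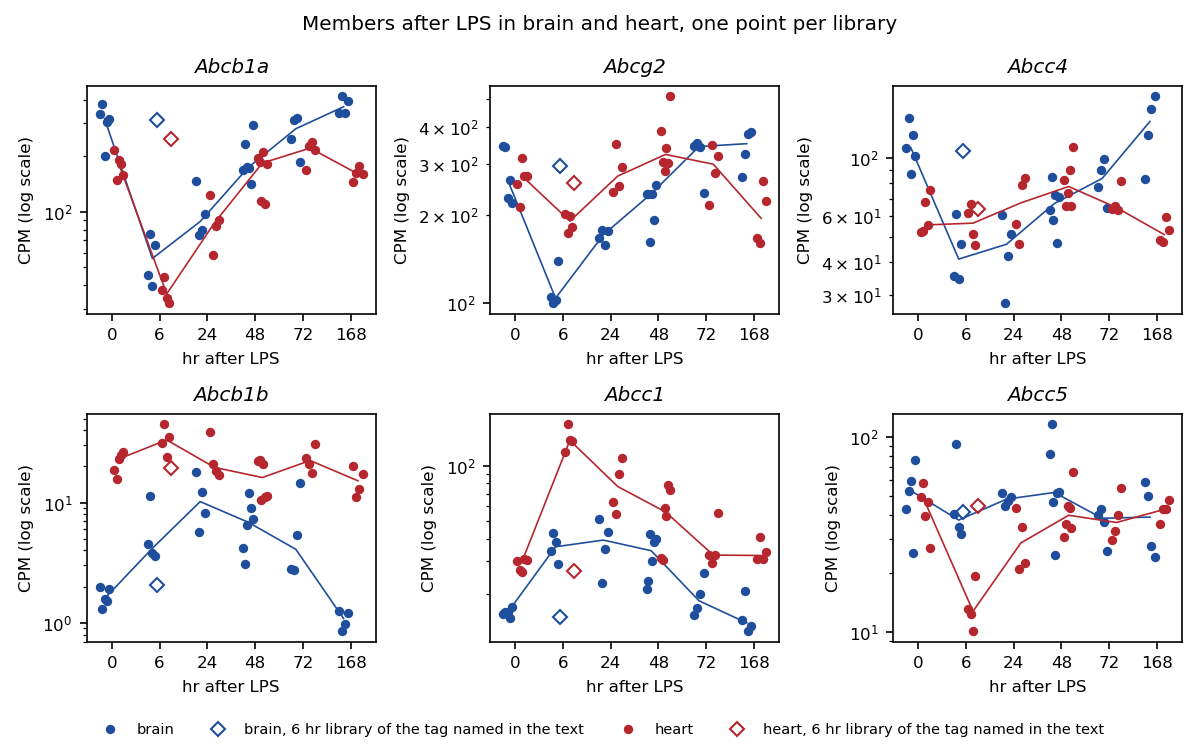
CPM of Abcb1a, Abcg2, Abcc4, Abcb1b, Abcc1 and Abcc5 at 0, 6, 24, 48, 72 and 168 hr in each library of brain and heart; lines join medians without the tagged 6 hr library, which is drawn as an open diamond. In brain, Abcb1a drops from 200 to 382 at 0 hr to 39.5 to 75.9 in the untagged 6 hr libraries and is back at 339 to 417 at 168 hr.

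Abcb1a in brain was at 45.5, 75.9, 39.5 and 66.2 CPM in the untagged 6 hr libraries and at 310 in replicate 6, against 200 to 382 at 0 hr. The 4 libraries lay wholly below the controls and replicate 6 lay among them. The log2 fold change was -1.63 (SE 0.34, adjusted p = 0.00391) with replicate 6 and -2.36 without it (SE 0.28, adjusted p = 1.03e-06, 5.14-fold lower). At 24 hr it was at 146, 74.3, 79.9 and 96.8 CPM, still below every control (-1.73, SE 0.40, adjusted p = 0.00698). At 48 hr the 6 libraries ran from 141 through a median of 172 to 294 CPM and overlapped the controls (-0.61, SE 0.34, adjusted p = 0.219), and by 168 hr the 4 libraries stood at 340, 417, 339 and 394.

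Abcg2 in brain was at 105, 99.9, 103 and 139 CPM at 6 hr, with replicate 6 at 295, against 220 to 343 at 0 hr. Again the 4 libraries lay below all controls. The fall was -0.92 (SE 0.23, adjusted p = 0.0125), or -1.34 without replicate 6 (SE 0.20, adjusted p = 2.61e-05, 2.54-fold lower). At 24 hr all 4 libraries, at 167, 178, 158 and 176 CPM, were still below the controls, but the difference missed the threshold (-0.74, SE 0.26, adjusted p = 0.0631). That value passed it without 6 hr replicate 6 (adjusted p = 0.0157), without 48 hr replicate 2 (adjusted p = 0.0477) and without 72 hr replicate 5 (adjusted p = 0.0420). In the other fits leaving out 1 library it did not pass, with adjusted p up to 0.214.

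Abcc4 in brain was at 35.4, 61.2, 34.7 and 46.9 CPM at 6 hr, with replicate 6 at 106, against 87.0 to 143 at 0 hr. It fell by 0.99 on the log2 scale (SE 0.26, adjusted p = 0.0192), or by 1.31 without replicate 6 (SE 0.27, adjusted p = 0.00101). With replicate 6 in the fit, the call was lost without control replicate 4 (-0.91, adjusted p = 0.0614) or 6 hr replicate 4 (-0.95, adjusted p = 0.0516). At 24 hr Abcc4 was at 60.6, 27.8, 42.3 and 51.4 CPM (-1.41, SE 0.31, adjusted p = 0.0049), and at 48 hr, from 47.6 to 84.3 with a median of 67.0, it was still below every control (-0.76, SE 0.25, adjusted p = 0.046), a call that 12 of 28 fits leaving out 1 library lost (adjusted p up to 0.105). The 48 hr call was also lost with all libraries, no series term, the replicate block and limma-voom (adjusted p up to 0.114).

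Abcc6, which these data place in brain, was at 0.511, 1.08, 0.68 and 1.44 CPM at 6 hr, with replicate 6 at 4.85, against 3.95 to 10.2 at 0 hr. The difference was -2.07 with replicate 6 (SE 0.74, adjusted p = 0.104) and -3.27 without it (SE 0.76, adjusted p = 0.00377). At 24 hr the libraries, at 1.16, 0.426, 0.922 and 0.504 CPM, were all below the controls, with no call (-2.28, SE 0.95, adjusted p = 0.115). At 48 hr replicates 1 and 2 were at 8.41 and 11.7 CPM, and replicates 3, 4, 6 and 7 at 0.333, 4.15, 0.115 and 0.388. Replicates 1 and 2 also had the highest Rgs5, a pericyte marker, of that time (831 and 1348 CPM). At 6 hr, by contrast, replicate 2 had Rgs5 at 2698 CPM with Abcc6 at 1.08. The part of mural RNA in the Abcc6 level was not tested. At 168 hr the range was 6.28 to 11.3 CPM.

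Abcc1 and Abcb1b moved the other way in brain. Abcc1 was at 34.1, 42.8, 38.1 and 29.0 CPM at 6 hr, with replicate 6 at 15.0, against 14.7 to 16.9 at 0 hr, and rose by 1.06 on the log2 scale (SE 0.25, adjusted p = 0.0089) or 1.35 without replicate 6 (SE 0.19, adjusted p = 1.76e-05). At 24 hr it was at 51.1, 22.9, 35.1 and 43.4 CPM (1.10, SE 0.28, adjusted p = 0.0125; 0.93, adjusted p = 0.0681 without 24 hr replicate 1), and at 48 hr from 21.3 through 34.3 to 42.3 (0.96, SE 0.25, adjusted p = 0.0131). Both calls were lost with all tissues in 1 fit, and the 24 hr call also with the replicate block. The adjusted p ran up to 0.358 at 24 hr and 0.404 at 48 hr over the alternatives. All libraries of 24 and 48 hr lay above all controls.

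Abcb1b in brain went from 1.31 to 1.97 CPM at 0 hr to 4.56, 11.3, 3.78 and 3.61 at 6 hr, with 2.08 in replicate 6. The rise was 1.77 (SE 0.44, adjusted p = 0.0123) and 2.11 without replicate 6 (SE 0.39, adjusted p = 0.000378); without replicate 2, the highest library, it was 1.18 (adjusted p = 0.0731). The largest value came at 24 hr, at 17.8, 5.68, 12.2 and 8.23 CPM (2.22, SE 0.47, adjusted p = 0.00441), and at 48 hr the libraries ran from 3.07 through 6.88 to 12.0 (1.70, SE 0.44, adjusted p = 0.0129). All libraries of these 3 times lay above all controls. Abcb1a and Abcb1b, which share part of their sequence, thus changed in opposite directions at 6 and 24 hr.

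Abcc3 in brain was low throughout and rose late. It was not called at 6 hr (0.03, adjusted p = 0.986, and 0.25, adjusted p = 0.763 without replicate 6). At 24 hr it was at 2.85, 1.81, 1.65 and 1.34 CPM against 0.309 to 1.26 in the controls (1.41, SE 0.43, adjusted p = 0.0343, lost in 7 of 28 fits leaving out 1 library, with adjusted p up to 0.108). With all tissues in 1 fit the 24 hr call was lost as well (adjusted p = 0.329). At 48 hr Abcc3 ran from 1.35 through 3.23 to 4.67 CPM (2.10, SE 0.39, adjusted p = 0.0015). Abcc5 and Abcc9 were not called in brain at 6 hr (-0.20 and 0.06, adjusted p = 0.822 and 0.98, and -0.21 and 0.00, adjusted p = 0.793 and 0.999 without replicate 6).

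At 24 hr, 3 members were higher in brain (6.52% of genes) and 2 lower (4.66%), and at 48 hr 3 were higher (8.11%) and 1 lower (6.12%). Markers moved with these members. The summed level of 8 brain endothelial markers was 3612 to 6912 CPM at 0 hr, 1783 to 2240 at 6 hr without replicate 6 (5024 with it at the highest) and 1665 to 1845 at 24 hr, with 4, 7 and 4 of the 8 lower at 6, 24 and 48 hr (7 at 6 hr without replicate 6). The 12 general endothelial markers summed to 2020 to 3556 CPM at 6 hr and 3070 to 5320 at 24 hr, with 2 higher and 5 lower at 6 hr (3 and 5 without replicate 6). The sum of 5 fibroblast markers was 342 to 1101 CPM at 0 hr and 1207 to 4226 at 24 hr, without overlap, with 1 marker higher. The sum of 10 mural markers was 1283 to 3474 CPM at 0 hr and 734 to 1208 at 24 hr, also without overlap, with 0 markers called. At 48 hr, 6 of 8 macrophage and 4 of 5 neutrophil markers were higher in brain. The neuronal sum was 1261 to 5311 CPM at 0 hr, 2106 to 6451 at 6 hr and 721 to 4921 at 24 hr. The part of these in the members' changes was not tested.

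In heart ECs at 6 hr, Abcb1a and Abcc5 fell and Abcc1 and Abcc3 rose. Abcc6 did not pass the filter on low counts in heart or lung. Of the 8 tested members, 2 were higher where 22.4% of 16024 genes were, and 2 lower where 20.3% were, close to the share among all genes. Without replicate 5, the tagged library, the counts were 2 and 3 beside 27.8% and 30.5%. Over the 5 times 4 of 40 member tests were higher (6.97% of gene tests) and 4 lower (5.71%), and 6 and 6 without that library (9.52% and 9.22%).

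Abcb1a in heart was at 37.7, 44.4, 34.3 and 32.0 CPM at 6 hr, with replicate 5 at 246, against 148 to 215 at 0 hr. The fall was -1.31 (SE 0.36, adjusted p = 0.00673) with replicate 5 and -2.20 without it (SE 0.22, adjusted p = 1.81e-08, 4.59-fold lower). At 24 hr it was at 123, 58.3, 83.9 and 90.1 CPM, all below the controls, with no call in the fit of all libraries (-1.17, SE 0.42, adjusted p = 0.0546). It was called by DESeq2, by limma-voom and with no filter on low counts, and also without 6 hr replicate 5 (adjusted p = 0.00227), without control replicate 2 (adjusted p = 0.0473) and without 48 hr replicate 1, 2, 3 or 6 (adjusted p = 0.0441, 0.0432, 0.0440 and 0.0391). In the other fits leaving out 1 library it was not called, with adjusted p up to 0.186. At 72 hr it was back at 167 to 236 CPM.

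Abcc1 had the largest rise in heart, to 118, 168, 138 and 137 CPM at 6 hr, with replicate 5 at 26.7, from 26.2 to 31.1 at 0 hr. The log2 fold change was 2.05 (SE 0.32, adjusted p = 6.21e-05), or 2.42 without replicate 5 (SE 0.19, adjusted p = 3.36e-10, 5.36-fold). At 24 hr it was at 63.5, 54.7, 90.2 and 110 CPM (1.11, SE 0.34, adjusted p = 0.0314, lost in 6 of 28 fits leaving out 1 library, with adjusted p up to 0.0813). The 24 hr call was also lost with the replicate block, limma-voom and all tissues in 1 fit (adjusted p up to 0.146). At 48 hr Abcc1 ran from 30.6 through 55.9 to 78.3 CPM, with 0.66 (adjusted p = 0.228, and 0.0427 without replicate 5). Over the fits leaving out 1 library that adjusted p ran up to 0.453.

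Abcc5 in heart was at 13.1, 12.5, 10.1 and 19.3 CPM at 6 hr, with replicate 5 at 44.3, against 26.9 to 58.2 at 0 hr. It fell by 1.10 (SE 0.24, adjusted p = 0.00115), or by 1.44 without replicate 5 (SE 0.22, adjusted p = 7.1e-06). At 24 hr its libraries, at 43.4, 21.2, 34.8 and 22.6 CPM, overlapped the controls, and the call (-0.80, SE 0.26, adjusted p = 0.0411) was lost in 13 of 28 fits leaving out 1 library, with adjusted p up to 0.123. That call was also lost with all libraries, no series term, the replicate block and all tissues in 1 fit (adjusted p up to 0.531).

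Of the other heart members, Abcc3, at low levels, changed more at 6 hr than Abcc5, and Abcg2 changed less. Abcg2 was at 201, 173, 199 and 183 CPM at 6 hr, with replicate 5 at 258, against 213 to 315 (-0.38, adjusted p = 0.0867, and -0.57, adjusted p = 0.00747 without replicate 5). Abcc3 was at 1.38, 1.75, 0.616 and 2.30 CPM at 6 hr, with 0.383 in replicate 5, against 0.292 to 1.14 (1.28, SE 0.50, adjusted p = 0.0422, lost in 9 of 28 fits leaving out 1 library, with adjusted p up to 0.132; 1.71, adjusted p = 0.00148 without replicate 5). Abcc9 was at 10.8, 11.5, 11.6 and 10.5 CPM at 24 hr, below all controls (-1.02, SE 0.34, adjusted p = 0.0444, lost in 15 of 28 such fits, with adjusted p up to 0.162). This Abcc9 call and the 6 hr call of Abcc3 were also lost with limma-voom and with all tissues in 1 fit. Over the alternatives their adjusted p ran up to 0.556 and 0.170. The Abcc3 call was lost with no series term and the replicate block too. Abcb1b and Abcc4 were not called at 6 hr (0.45 and -0.05, adjusted p = 0.166 and 0.832, and 0.56 and -0.10, adjusted p = 0.0817 and 0.642 without replicate 5), and Abcc4 was at 61.5, 66.5, 51.3 and 46.7 CPM beside 52.3 to 75.7 in the controls.

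At 24 hr, 1 member was higher in heart (9.07% of genes) and 2 lower (7.11%). At 48 hr Abcc3 alone was higher (3.08%), from 1.27 through 1.81 to 5.82 CPM (1.63, SE 0.48, adjusted p = 0.05, lost in 22 of 28 fits leaving out 1 library, with adjusted p up to 0.120), and 0 were lower (1.11%). The Abcc3 call was also lost with the replicate block, limma-voom and all tissues in 1 fit (adjusted p up to 0.175). The endothelial marker sum in heart was 12389 to 14254 CPM at 0 hr and 6480 to 8323 at 6 hr without replicate 5, with 8 of 12 markers lower at 6 hr (9 without replicate 5) and 1 at 24 hr. Of the mural markers, 1 was lower at 6 hr (5 without replicate 5) and 3 at 24 hr, and 5 and 4 of 5 neutrophil markers were higher, with Ly6g and Mmp8 at 0 in the controls. The sum of 5 fibroblast markers was 215 to 494 CPM at 0 hr, 498 to 961 at 24 hr and 748 to 1469 at 48 hr, both above every control, with 1 marker higher at each of these times. The mural sum was 132 to 253 CPM at 0 hr and 76.8 to 96.1 at 24 hr, without overlap. The part of these in the members' changes was not tested.

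**Figure D3:**
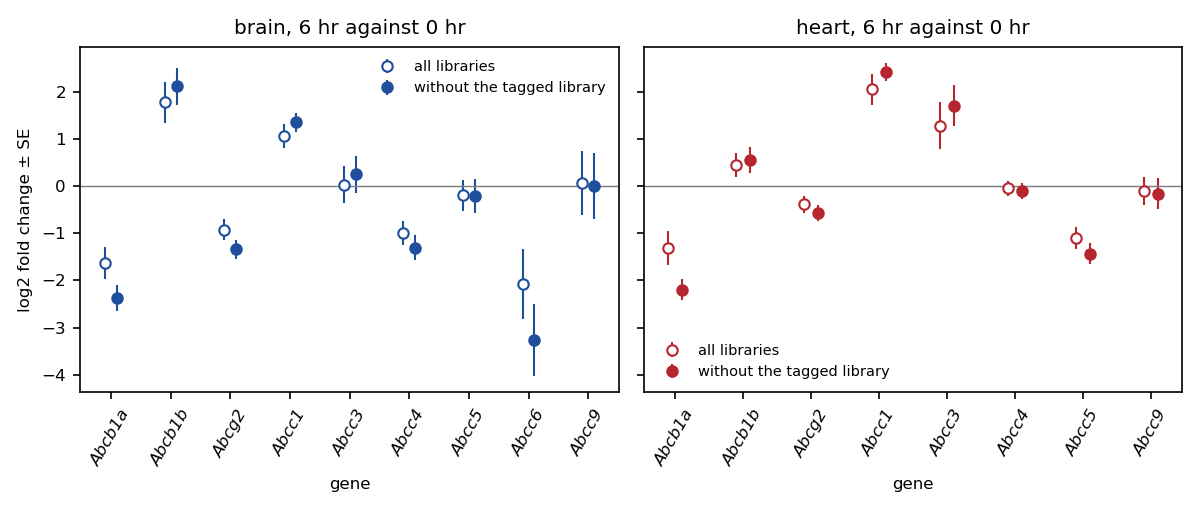
Log2 fold change at 6 hr against 0 hr with its SE for the members tested in brain and heart, with all libraries (open) and without the tagged library (filled). Without the tagged library Abcb1a lies at -2.36 in brain and -2.20 in heart, and Abcc1 at 1.35 and 2.42.

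In lung ECs, Abcb1b was the only member called higher by the edgeR fit within lung. It was at 23.9, 0 and 9.52 CPM at 6 hr (40, 0 and 303 counts), with 28.9 from a single count in replicate 4, against 0, 0, 0.149 and 1.41 at 0 hr. Replicate 2 was at 0, as were 2 of the controls, so the groups overlapped, and the other 6 hr libraries lay above the controls. The fitted log2 fold change of 5.52 (SE 1.30, adjusted p = 0.0131, and 0.0241 without replicate 4) rests on controls at or near 0. The call was lost without control replicate 2 (5.04, adjusted p = 0.0505) or 3 (5.31, adjusted p = 0.0698). At 24 hr both libraries, at 11.1 and 6.62 CPM, lay above the controls (4.40, SE 1.26, adjusted p = 0.196). At 48 hr all 6, from 2.37 through 5.06 to 26.5 CPM, did so as well (4.86, SE 1.15, adjusted p = 0.0386, lost in 10 of 24 fits leaving out 1 library, with adjusted p up to 0.209). At 72 hr all libraries lay above the controls too, with no call. At 168 hr Abcb1b was at 2.48, 1.23, 1.89 and 1.89 CPM.

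**Figure D4:**
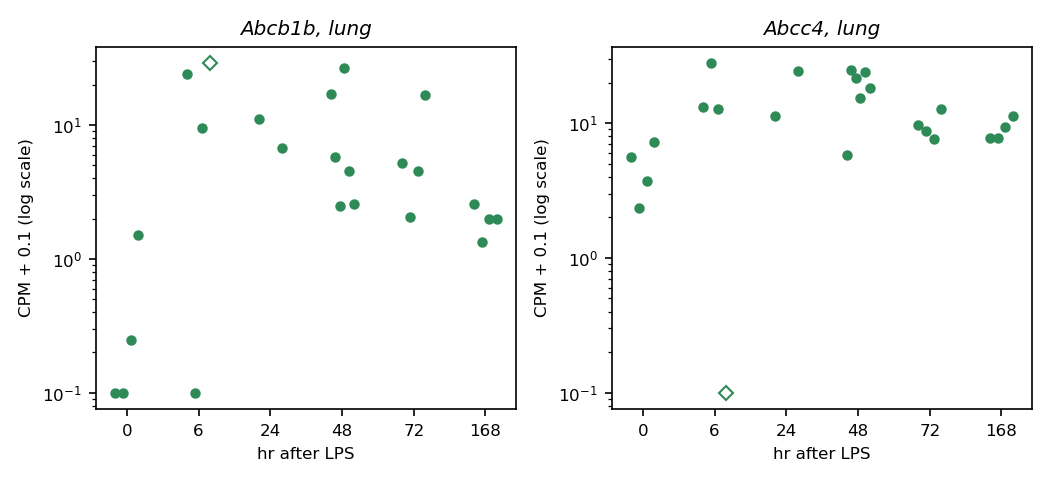
CPM of Abcb1b and Abcc4 in each lung library over time, on a log axis after adding 0.1; the open diamond is the tagged 6 hr library. At 24 and 48 hr every library of Abcb1b lies above the 4 controls (0 to 1.41).

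Abcc4 in lung was at 13.1, 27.6 and 12.7 CPM at 6 hr, with 0 counts in replicate 4, against 2.24 to 7.19 at 0 hr. The 27.6 CPM came from replicate 2, whose TMM factor was 0.250. Abcc4 was at 11.1 and 24.2 CPM at 24 hr and from 5.68 through 20.0 to 24.7 at 48 hr. The differences of 1.71, 1.60 and 1.82 at 6, 24 and 48 hr did not pass the threshold (adjusted p = 0.144, 0.804 and 0.191, and 1.93, adjusted p = 0.111 at 6 hr without replicate 4). At 24, 72 and 168 hr all Abcc4 libraries lay above all controls. The medians at 72 and 168 hr were 2.00 and 1.85 times that of the controls, with no call. Abcb1a was at 8.95, 36.4 and 11.3 CPM at 6 hr beside 16.8 to 36.2 in the controls, and replicate 4 held 2 counts (-0.64, adjusted p = 0.549, and -0.90, adjusted p = 0.413 without replicate 4).

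Of the 8 members tested in lung, 1 was higher at 6 hr (2.56% of 17058 genes) and 1 at 48 hr (0.428%), the same gene. Over the 5 times 2 of 40 member tests were higher (0.703% of gene tests) and 0 lower (0.498%), and 1 and 0 without replicate 4 (0.669% and 0.354%). By edgeR, members at an unadjusted p under 0.05 in either direction numbered 3, 2, 2, 1 and 0 at 6, 24, 48, 72 and 168 hr, and DESeq2 called 3, 1, 2, 1 and 0. The median of all genes tested in lung was shifted at 24 hr too, by -0.12. In the same comparison at 6 hr, 4 of 6 neutrophil markers were higher, with sums of 26.9 to 202 CPM at 0 hr and 1801 to 3605 at 6 hr without replicate 4, and the endothelial sum ran from 3123 to 17309 CPM. Their part in the Abcb1b rise was not tested.

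At 72 and 168 hr no member was called in brain or heart. In brain at 72 hr (3.53% of genes called by edgeR), 2 members had an unadjusted p under 0.05 and DESeq2 called 2 and limma-voom 0; Abcb1b was at 2.82, 2.77, 5.37 and 14.7 CPM (1.56, SE 0.47, adjusted p = 0.065, and 0.0269 without 6 hr replicate 6 or 0.0217 without 6 hr replicate 2) and Abcc3 at 1.33 (SE 0.40, adjusted p = 0.0678, and 0.0452 without 6 hr replicate 6, 0.0425 without control replicate 4 or 0.0445 without 48 hr replicate 7). Over the fits leaving out 1 library, the adjusted p in brain at 72 hr ran up to 0.297 for Abcb1b and 0.167 for Abcc3. At 168 hr 0.0% of genes were called in brain and heart, and 1 member in each had an unadjusted p under 0.05, with 0 by DESeq2. In brain that member was Abcb1b, at 0.852 to 1.26 CPM below every control (-1.27, SE 0.54, adjusted p = 0.903). In heart at 72 hr 0.275% of genes and 0 members were called, 1 at an unadjusted p under 0.05 and 0 by DESeq2.

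The response itself was compared between tissues in 1 fit over all of them, as the difference of the log2 fold changes. Brain and lung differed in 5 of 45 member tests (4.22% of gene tests), lung and heart in 7 (4.21%), and brain and heart in 0 (0.349%). These comparisons share control libraries of a tissue across times. Each gene had 1 estimate of spread for all tissues in this fit, although depth and composition differed more between lung libraries. Adjusted p values of differences that involve lung can therefore be too small. Without the 3 tagged libraries the counts were 7, 8 and 0 (4.45%, 4.71% and 1.65%).

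Abcc4 set brain apart from lung at each of the first 3 times. The brain response minus the lung response was -2.93 at 6 hr (SE 0.45, adjusted p = 2.02e-05), -3.24 at 24 hr (SE 0.47, adjusted p = 1.25e-05) and -2.78 at 48 hr (SE 0.40, adjusted p = 2.59e-05). Without the tagged libraries the 6 hr value was -3.09 (SE 0.44, adjusted p = 2.61e-06). Lung minus heart was 2.00, 1.84 and 1.64 for the same gene (adjusted p = 0.00127, 0.0223 and 0.0172, and 1.96, adjusted p = 0.000867 at 6 hr without the tagged libraries). The 24 hr call was lost with the mouse block, with no filter on low counts, with no series term and with all libraries (adjusted p up to 0.162), the 6 hr call with all libraries (adjusted p = 0.0563) and the 48 hr call with no filter (adjusted p = 0.0793). The median of all genes in this contrast was 0.40 for brain minus lung and -0.37 for lung minus heart at 6 hr, opposite in sign to the Abcc4 values.

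Abcb1b responded more in lung than in brain at 6 hr (-3.41 for brain minus lung, SE 0.96, adjusted p = 0.012) and more than in heart at 6, 24, 48 and 72 hr (4.55, 4.33, 5.03 and 4.06, adjusted p = 0.000635, 0.00944, 0.00139 and 0.04). Without the tagged libraries the 6 hr values were -3.09 (adjusted p = 0.0255) and 4.40 (adjusted p = 0.000837), and the 72 hr call was lost with no series term (adjusted p = 0.0661). These values carry the same limit as the lung rise, since 2 of 4 lung controls had 0 counts. Abcg2 differed between brain and lung at 24 hr (-1.99, SE 0.52, adjusted p = 0.0135, lost with all libraries at 0.0872), where the 2 lung libraries were at 168 and 381 CPM beside 75.1 to 154 in the controls. Abcb1a was added at 6 hr without the tagged libraries, at -1.50 for brain minus lung (adjusted p = 0.0189) and 1.42 for lung minus heart (adjusted p = 0.0196). Abcc9 was added there as well, as higher for brain minus lung. Its untagged 6 hr lung libraries were at 0 to 0.314 CPM. In brain, 6 hr replicate 2 was at 62.8 CPM beside 3.85 to 5.38 in the other 6 hr libraries.

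Between brain and heart, edgeR called no member, while 1, 2, 2, 1 and 0 members had an unadjusted p under 0.05 at 6, 24, 48, 72 and 168 hr and DESeq2 called 1. The widest were Abcb1b at 24 hr (2.58, adjusted p = 0.202) and Abcc4 at 24 and 48 hr (-1.40 and -1.14, adjusted p = 0.123 and 0.188). The fall of Abcb1a at 6 hr, at -2.36 in brain and -2.20 in heart without the tagged libraries, was not called different between them.

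Libraries came in series that the file names set apart, so the sign of each called member difference was read within a series. The differences were chosen as called in fits of these same libraries, and many of them share libraries. Agreement in sign was thus largely built in and is a description only. Within series 2, 58 of 58 had the sign of the fit. Within series 1, 53 of 58 had it; of the other 5, Abcc1 in brain and Abcb1a, Abcc1 and Abcc3 in heart at 6 hr rest there on the tagged library, and the last was Abcc9 between brain and lung at 0 hr.

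Other genes of drug handling were read from lists of ABC genes, organic ion carriers, xenobiotic sensors and conjugating enzymes. At 0 hr, of 36 other ABC genes tested in brain against the other tissues, 15 were higher and 8 lower (median 0.64, beside 0.22 over all genes), and of 19 carriers 14 were higher and 3 lower. Over all genes tested in this comparison 35.1% were higher and 23.4% lower. Slco1c1, the thyroid hormone carrier of brain vessels, had a mean of 488 CPM in brain beside 0.275 in the other tissues, and the organic anion carriers Slc22a8 and Slc22a6 had 389 beside 0.0916 and 216 beside 0.00732. The sensors ran the other way, with 1 higher and 9 lower of 16 in brain, among them Pparg at -3.59, Ahr at -2.55 and Rxra at -1.41. In heart 11 of the sensors were higher and 2 lower, with Pparg at 5.24, and the partners of Abcc9 in ATP-sensitive potassium channels, Kcnj11 and Kcnj8, were higher (2.80 and 2.38). Over all genes tested 27.7% were higher and 30.5% lower in heart.

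Of all genes tested in brain at 6 hr after LPS, 4.21% were higher and 2.23% lower (7.63% and 6.71% without replicate 6). There the other ABC genes were higher in 3 of 35 and lower in 0 (4 and 3 without replicate 6). The 3 were Tap1 (2.81) and Tap2 (1.56), the peptide transporters of antigen presentation, and Abca1 (0.89), a cholesterol exporter. Of 20 carriers 0 were higher and 1 lower at 6 hr with replicate 6 (Slco2b1, -0.97), and 0 and 8 without it, with Slco1a4 at -3.74 and Slco1c1 at -3.66. At 24 hr 6 carriers were lower (4.66% of genes) and 0 higher (6.52%), with Slco1c1 at -4.18. In heart at 6 hr, 5 of 33 other ABC genes were higher and 14 lower (9 and 17 without replicate 5), with Tap1 at 3.88, and 2 of 14 carriers were higher and 5 lower (2 and 6). Of all genes tested in heart at 6 hr, 22.4% were higher and 20.3% lower (27.8% and 30.5% without replicate 5). Ephx1, an epoxide hydrolase, fell by 2.29 there (by 4.52 without replicate 5), and Hif1a, the hypoxia factor, rose by 3.15 (3.58).

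The genes most like each member were taken as those with the highest Pearson r over the 18 group means of log2 CPM, among 9022 genes. They are a description, and the points share libraries and normalization. For Abcb1a these were Slco2b1 (0.978), Ctsh (0.950) and Ptprr (0.946), and for Abcg2 they were Dnpep (0.945), Atox1 (0.944) and Iars2 (0.937). For Abcc4 they were Uba3 (0.954), Perp (0.952) and Ash1l (0.951). Abcc6 was most like Ildr2 (0.943), Ptn (0.942) and Itih5 (0.941), while for Abcb1b the values were lower, with P2ry2 at 0.886. Vtn, a gene of the mural marker list, was at rank 5 for Abcc6 (0.939). Abcc9 was most like Jam3 (0.966), Hspb6 (0.959) and Lama4 (0.955).

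Abcc9 had the widest spread of the 9 members between the control brain libraries. In 6 of 28 brain libraries it was at 20.3 to 62.8 CPM and in the other 22 at 1.44 to 9.14. The same 6 libraries were the highest in Rgs5, a pericyte marker, at 810 to 2698 CPM beside 12.2 to 109 in the others, and 5 of them were among the 6 highest in Kcnj8, its channel partner. Cspg4, another mural marker, was at 16.3 to 39.1 CPM in them beside 0.333 to 10.7. All 6 belonged to library series 2, of whose 12 brain libraries the other 6 had Abcc9 at 3.85 to 5.38 CPM, and they came from several times after LPS and from the controls. The part of mural RNA in the Abcc9 level was not tested.

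**Figure D5:**
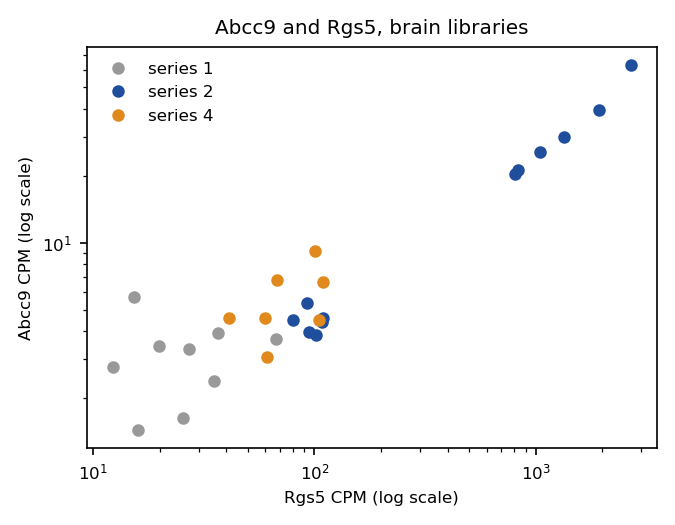
Abcc9 against Rgs5, a mural cell marker, in CPM on log axes in the 28 brain libraries, coloured by library series. The 6 libraries with Abcc9 at 20.3 to 62.8 are also those with Rgs5 at 810 to 2698.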

How the data were processed

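Ribosome-bound RNA pulled down with anti-HA antibody was sequenced by the authors (TruSeq mRNA libraries, Illumina HiSeq), aligned with STAR 2.4.2 to mm10 and counted per gene with HTSeq 0.6.1, per the submitters' processing notes and methods. The deposited counts are whole reads per Ensembl gene, not normalized. The annotation release and strand setting are not given in the sources used here; exon bases shared with a gene on the other strand number 553 for Abcb1a, 143 for Abcb1b and 158 for Abcc9. Rows that name no gene (no feature, ambiguous, not unique) were left out of library sizes. Symbols came from GENCODE annotation of GRCm38 for 52403 of 52550 identifiers.

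Runs (217) were summed into 98 libraries. The 18 with under 3% of reads on genes (1.73% to 2.75%), all of library series 3, were left out; the used ones had 53.4% to 70.0% in brain, 43.7% to 68.9% in heart and 3.40% to 61.0% in lung. Library series and mouse tags were read from file names, so they are not label facts. Groups came from the labels. Nothing there says that libraries came from separate animals, and tissues may share a mouse, so p-values measure the spread between these samples, which may be technical. No replicate pair agreed within sampling noise (lowest chi-square per degree of freedom 15.1 over 146 pairs). Numbers were to be used as pairs if every same-numbered pair of 2 groups correlated above 0.1, which held in 0 of 18 comparisons. In lung at 0 and 48 hr 3 of 4 pairs passed 0.1 (r up to 0.754), as did 3 of 4 in heart at 0 and 24 hr. Replicate numbers are not mouse tags, so the check could not exclude pairing by animal. All 5 such pairs of brain and heart at 0 hr shared a file tag, but that of replicate 5 held no mouse number and does not show a shared mouse. Lung control replicates 1, 2 and 3 shared numbered tags with brain and heart control replicates 2, 3 and 4. The main fits did not use these tags.

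Counts were tested with edgeR 4.0.16 (quasi-likelihood, two-sided, TMM scaling, filterByExpr, library series as a term; R 4.3.3), with Benjamini-Hochberg adjustment over all genes tested and a threshold of 0.05. Control libraries of all tissues were fitted together, LPS times within each tissue, and the difference between tissues in 1 fit of all libraries. Alternatives were DESeq2 1.42.0, limma-voom (limma 3.58.1), size factors by RLE, no filter on low counts, no series term, all libraries, a replicate block, a mouse block, leaving out each library, and, chosen after seeing the data, leaving out the 3 tagged 6 hr libraries. The fitting scripts were tested on simulated data. Levels per length used GENCODE exon lengths and a prior count of 2 on the log2 scale. Named genes were the 9 members, up to 3 genes per list and comparison by largest called change, and the 5 genes most like a member. The members, lists and markers were chosen with earlier results of these data known. The check genes for the tagged libraries and the mural genes set beside Abcc9 were chosen after their values were seen.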

Additional observations from a re-analysis of the deposited data

Results flagged for a closer look

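A library was noted where its gap to the nearest other library of its group passed Dixon's 95% critical value, which happened for 16 of 142 member groups of 4 to 6 libraries; chance gives about 1 in 20. Of these, 5 were the tagged 6 hr libraries of brain and heart: Abcb1a at 310 CPM in brain replicate 6 (39.5 to 75.9 in the others), Abcg2 at 295 (99.9 to 139) and Abcc6 at 4.85 (0.511 to 1.44) in the same library, and Abcb1a at 246 (32.0 to 44.4) and Abcc5 at 44.3 (10.1 to 19.3) in heart replicate 5. In the tagged lung library Abcc9 was at 28.9 CPM, which is a single count (0 to 0.314 in the others). Brain 6 hr replicate 2 stood apart in 3 members, with Abcb1b at 11.3 (2.08 to 4.56), Abcc5 at 91.9 (32.0 to 41.1) and Abcc9 at 62.8 (3.85 to 5.38). Of the 72 hr libraries, replicate 5 stood apart with Abcg2 at 239 in brain (342 to 353), Abcc1 at 55.2 in heart (29.5 to 32.5) and Abcc4 at 81.6 in heart (63.0 to 65.5), and brain replicate 2 with Abcc9 at 20.3 (1.63 to 4.60). At 48 hr replicate 4 had Abcc3 at 5.82 in heart (1.27 to 1.93) and at 30.1 in lung (5.54 to 12.6), and at 0 hr lung replicate 4 had Abcb1b at 1.41 (0 to 0.149).

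The response to LPS differed between tissues, by the interaction test in edgeR, in 12 of 135 member tests. Brain minus lung gave -3.41 for Abcb1b at 6 hr, -2.93, -3.24 and -2.78 for Abcc4 at 6, 24 and 48 hr and -1.99 for Abcg2 at 24 hr. Lung minus heart gave 4.55, 4.33, 5.03 and 4.06 for Abcb1b at 6, 24, 48 and 72 hr and 2.00, 1.84 and 1.64 for Abcc4 at 6, 24 and 48 hr.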

How the results depend on the processing

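No called difference changed sign under any alternative. Over alternatives other than leaving out a library, 685 of 761 single differences kept their side of the threshold, 47 lost it and 29 gained it, and of 168 counts 150 stayed within 1.5 times. Members lower in heart at 0 hr went from 1 to 2 with DESeq2 and with limma-voom, and members called between brain and heart from 5 to 3 with all libraries. Test counts higher after LPS went from 8 to 3 in brain, from 2 to 9 in lung and from 4 to 1 in heart with all tissues in 1 fit, and those lower from 0 to 1 in lung and from 4 to 2 in heart. In lung the count higher was 7 with DESeq2, 4 with no filter and 1 without the tagged libraries, and in heart 1 with limma-voom. The brain minus lung count went from 5 to 8 with DESeq2 and 10 with the mouse block, and brain minus heart from 0 to 1 with DESeq2, 2 with the mouse block and 2 with no filter. The cause was not tested.

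With the replicate block, which the check of pairing did not call for, the counts were 7 higher and 5 lower in brain, 2 and 0 in lung and 1 and 3 in heart after LPS, 7, 6 and 6 for the tissue pairs at 0 hr and 5, 0 and 7 for the differences between tissues. Lost under it were Abcc1 and Abcb1b in brain at 24 hr, Abcc4 in brain at 48 hr, Abcc3 in heart at 6 and 48 hr and Abcc1 and Abcc5 in heart at 24 hr.

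Leaving out 1 library, members higher and lower at 0 hr ranged over 4 to 4 and 2 to 3 in brain, 1 to 1 and 5 to 5 in lung and 5 to 6 and 1 to 1 in heart, pairs over 5 to 7, 4 to 6 and 6 to 7, and tests after LPS over 6 to 10 and 4 to 8 in brain, 0 to 2 and 0 to 0 in lung and 1 to 6 and 2 to 6 in heart. Leaving out a library was not run for the differences between tissues. With a prior count of 0.5, 25 of 27 levels per length moved by less than 1 SD. Lung depth and TMM scaling limit low members most: in the shallowest library a single count is 28.9 CPM.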
